A study of Mus musculus with 102 samples.

Results

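Inhibitory and paired immune receptors are membrane proteins through which immune cells are held in check. This set holds 10 of their genes: Cd72, Cd244a, Sirpa, Cd200r1, Cd300lf, Cd300a, Lilrb4a, Pirb, Lair1 and Siglece. They were found by symbol among the 18856 genes of the deposited normalized table, matched by gene identifier to the 53715 genes of the raw count table, and all 10 were present in both. All 10 passed the filter on low counts and are among the 20461 genes tested. The members were selected with earlier results on these same samples in view, and which values chose each gene is not recorded. The comparisons most likely to have served are cisplatin saline against naive in each genotype, and KO against WT after cisplatin saline. Values of these 3 comparisons are therefore a description, given without a p-value.

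RNA was measured in microglia, the resident macrophages of the central nervous system, sorted by flow cytometry from lumbar spinal cord of mice. WT mice were set against ABC-imKO mice (Abca1fl/fl Abcg1fl/fl Cx3cr1-CreERT2, here KO), in which a Cre recombinase that depends on tamoxifen and is driven by the promoter of the microglial gene Cx3cr1 can remove the cholesterol exporters Abca1 and Abcg1. Mice of each genotype were naive, with no treatment, or had received cisplatin, a platinum drug that causes painful neuropathy, into the peritoneum on days 1 and 3. On day 7 the treated mice received an injection into the spinal fluid, of saline or of AIBP, the apolipoprotein A-I binding protein. Every comparison with naive thus holds cisplatin and an intrathecal injection together. WT cisplatin AIBP had 2 numbered samples (7 and 9), and the other 5 groups had 3 apiece. Each sample is a sum of 3 technical libraries on 2 lanes and held 45072898 to 76643616 counts. The labels do not give age, sex, tamoxifen dosing or whether WT mice carried Cre, nor whether 1 mouse or several went into a sample. The spread behind every p-value is that between these samples.

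Most receptors of this kind carry an immunoreceptor tyrosine-based inhibitory motif (ITIM) in the cytoplasmic tail. When its tyrosine is phosphorylated by Src family kinases, the motif recruits the phosphatases encoded by Ptpn6, Ptpn11 or Inpp5d, which oppose signals from activating receptors. Many are called paired because a related activating receptor, which couples to the adaptors DAP12 (Tyrobp) or FcRγ (Fcer1g), lies beside them in the genome. In microglia, CD200R1 and SIRPα are known for receiving the restraining signals CD200 and CD47 from neurons.

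The coding sequences are shown because the inhibitory motif is what most receptors of this kind share. In the longest complete coding transcript of each member in GENCODE release M21, the codons of an isoleucine, valine, leucine or serine, any residue, a tyrosine, any pair of residues, and a leucine, valine or isoleucine were searched on the cytoplasmic side of the most hydrophobic stretch of 19 codons. Of the 10 members, 8 held 1 to 3 such stretches there, and Cd244a and Cd200r1 held 0. Anywhere in the coding sequence, 49.1% of 21523 coding genes held the pattern, so a match is a description and not a motif shown to signal. Each line gives 18 bases from 5′ to 3′, with the tyrosine codon in capitals.
Cd72 tyrosine codon 7: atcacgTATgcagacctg
Cd72 tyrosine codon 39: ctcaccTACgagaatgtg
Sirpa tyrosine codon 440: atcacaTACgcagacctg
Sirpa tyrosine codon 481: ctcaccTATgctgacctg
Cd300lf tyrosine codon 241: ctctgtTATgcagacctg
Cd300lf tyrosine codon 289: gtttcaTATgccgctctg
Cd300a tyrosine codon 262: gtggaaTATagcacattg
Cd300a tyrosine codon 274: cttcacTATtcatccgtg
Lilrb4a tyrosine codon 322: gtaaccTATgcccagttg
Pirb tyrosine codon 794: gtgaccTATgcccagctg
Lair1 tyrosine codon 228: gtgacgTATatccagctg
Siglece tyrosine codon 432: atacatTATgcgaccctc
The stretches of Cd72 codon 7 and Sirpa codon 440 differed at 2 of 18 bases, and those of Lilrb4a codon 322 and Pirb codon 794 also at 2. Not printed are further matches in Sirpa, Lilrb4a, Pirb and Lair1, and one in Cd72 at codon 95 that adjoins the hydrophobic stretch.

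Cd244a held the switch pattern alone. Its tail held 4 stretches of the switch pattern, in which a threonine codon stands in the first place and a valine or isoleucine codon in the last. Cd300lf, Siglece and Sirpa each held 1 such stretch beside their inhibitory ones. Such switch motifs can recruit either adaptors of the SAP family or phosphatases.
Cd244a tyrosine codon 266: acaataTATgaatatgtc
Cd244a tyrosine codon 325: accatgTACtctatgata
Cd244a tyrosine codon 344: acagtaTATtcagtagtc
Cd244a tyrosine codon 369: accgtgTACgaggaggtt
Cd200r1 held neither pattern at its 3 cytoplasmic tyrosine codons. CD200R1 is known to signal through Dok adaptor proteins.

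Promoters are shown for 4 members that the values turn on, to set their start sites side by side. RefSeq promoters (build GRCm38.p6, 250 bases before to 50 after the start site) were matched for 7 of the 10 members, without Sirpa, Lilrb4a and Cd200r1. The core of the site of PU.1, the myeloid transcription factor, was searched as GAGGAA on both strands and is in capitals. It was found in 7 of the 7 promoters, against 28.3% of all 32851 promoters of this length.
Cd72, chr4:43454577-43454876, minus strand: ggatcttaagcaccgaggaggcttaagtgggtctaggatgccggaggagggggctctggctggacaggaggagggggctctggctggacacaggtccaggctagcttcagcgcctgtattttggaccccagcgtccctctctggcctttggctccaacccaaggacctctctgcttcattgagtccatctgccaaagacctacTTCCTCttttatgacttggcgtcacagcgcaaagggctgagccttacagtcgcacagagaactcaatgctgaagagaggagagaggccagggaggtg
Cd300lf, chr11:115133943-115134242, minus strand: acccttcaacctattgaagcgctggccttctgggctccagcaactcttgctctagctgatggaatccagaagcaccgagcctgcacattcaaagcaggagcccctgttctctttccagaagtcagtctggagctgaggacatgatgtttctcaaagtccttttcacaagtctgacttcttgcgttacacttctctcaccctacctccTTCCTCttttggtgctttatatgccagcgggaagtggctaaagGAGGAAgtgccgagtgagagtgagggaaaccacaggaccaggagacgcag
Cd300a, chr11:114889791-114890090, plus strand: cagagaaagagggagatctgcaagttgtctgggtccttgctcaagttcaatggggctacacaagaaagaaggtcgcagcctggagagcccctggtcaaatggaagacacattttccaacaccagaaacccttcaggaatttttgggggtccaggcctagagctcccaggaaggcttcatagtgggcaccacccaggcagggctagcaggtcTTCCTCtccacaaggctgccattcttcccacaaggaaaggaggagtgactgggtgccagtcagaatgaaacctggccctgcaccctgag
Cd244a, chr1:171558943-171559242, plus strand: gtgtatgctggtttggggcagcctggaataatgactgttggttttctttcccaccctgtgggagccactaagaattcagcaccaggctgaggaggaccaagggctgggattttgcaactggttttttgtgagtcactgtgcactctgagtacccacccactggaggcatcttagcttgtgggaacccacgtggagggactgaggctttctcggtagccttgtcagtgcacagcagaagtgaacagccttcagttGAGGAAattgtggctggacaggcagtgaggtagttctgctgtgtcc
The nuclear receptor half-site AGGTCA, present in 16.3% of all promoters, was in none of the 7 windows. The AP-1 site TGANTCA (7.81% of all promoters) was in that of Cd244a alone, and the TATA box TATAAA (13.6%) in that of Cd300lf alone. These motifs were searched on both strands, and no motif of the list contains another.

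Of the marker lists summed, that of microglia was the highest in every sample. The summed level of 10 microglia markers was 20950 to 60378 CPM (counts per 1000000 counts of the TMM-scaled library) over the 17 samples. It was highest in the naive groups (42727 to 60378) and lowest in KO cisplatin saline (20950 to 24546). Of the B cell markers, Ms4a1, Cd79a and Pax5 were under 1 CPM in every sample, which bears on Cd72, a gene best known from B cells. Cd79b and Ighm, also on the B cell list, were at 17.4 to 88.6 and 236 to 1476 CPM. Of 9 neutrophil markers, S100a9, Ly6g and Retnlg held 3 counts or fewer over all samples, and the 9 summed to 0.0571 to 22.9 CPM in WT cisplatin saline and to 5.99 or less in the other groups. The 5 oligodendrocyte markers summed to 419 to 843 CPM in the naive groups and 183 to 555 after cisplatin, and the 6 astrocyte markers to 168 to 265 and 79.5 to 167. The part of these sums in the results was not tested. WT cisplatin saline 5 and 6 stood apart from sample 4: their 8 summed monocyte markers were at 229 and 167 CPM against 11.5, and their 8 border macrophage markers at 152 and 99.1 against 0.724. The monocyte sum was also 114 to 171 CPM in KO cisplatin saline and 166 CPM in KO cisplatin AIBP 8, against 3.86 to 38.7 in the other 11 samples. In the samples labelled KO cisplatin AIBP, Cx3cr1, whose promoter drives Cre, was at 5250 to 7078 CPM and Apoe at 1007 to 1541. KO cisplatin saline held 1718 to 2771 and 8111 to 21278 CPM of these, and WT cisplatin AIBP 7297 to 7902 and 862 to 1073. On these 2 genes the samples labelled KO cisplatin AIBP were thus nearer to WT than to other KO samples, and the label is quoted as it stands. Gene-level counts of Abca1 (32.6 to 114 CPM) and Abcg1 (25.6 to 160) include exons outside the floxed ones and do not measure the deletion.

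At rest the members spanned a wide range of levels. Per kilobase of exon, over the 6 naive samples, Sirpa was the most abundant (414 CPM per kb, range 366 to 489), followed by Lair1 (220, 191 to 252), Siglece (83.8, 58.9 to 108) and Cd300a (51.98, 41.7 to 63.2). Cd200r1 (12.5), Pirb (8.73) and Cd72 (7.08) came next. The ranges of Siglece and Cd300a overlapped, as did those of Pirb with Cd200r1 and with Cd72. Cd244a (2.11), Cd300lf (1.16) and Lilrb4a (0.629) were the lowest, and their ranges overlapped.

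**Figure D1:**
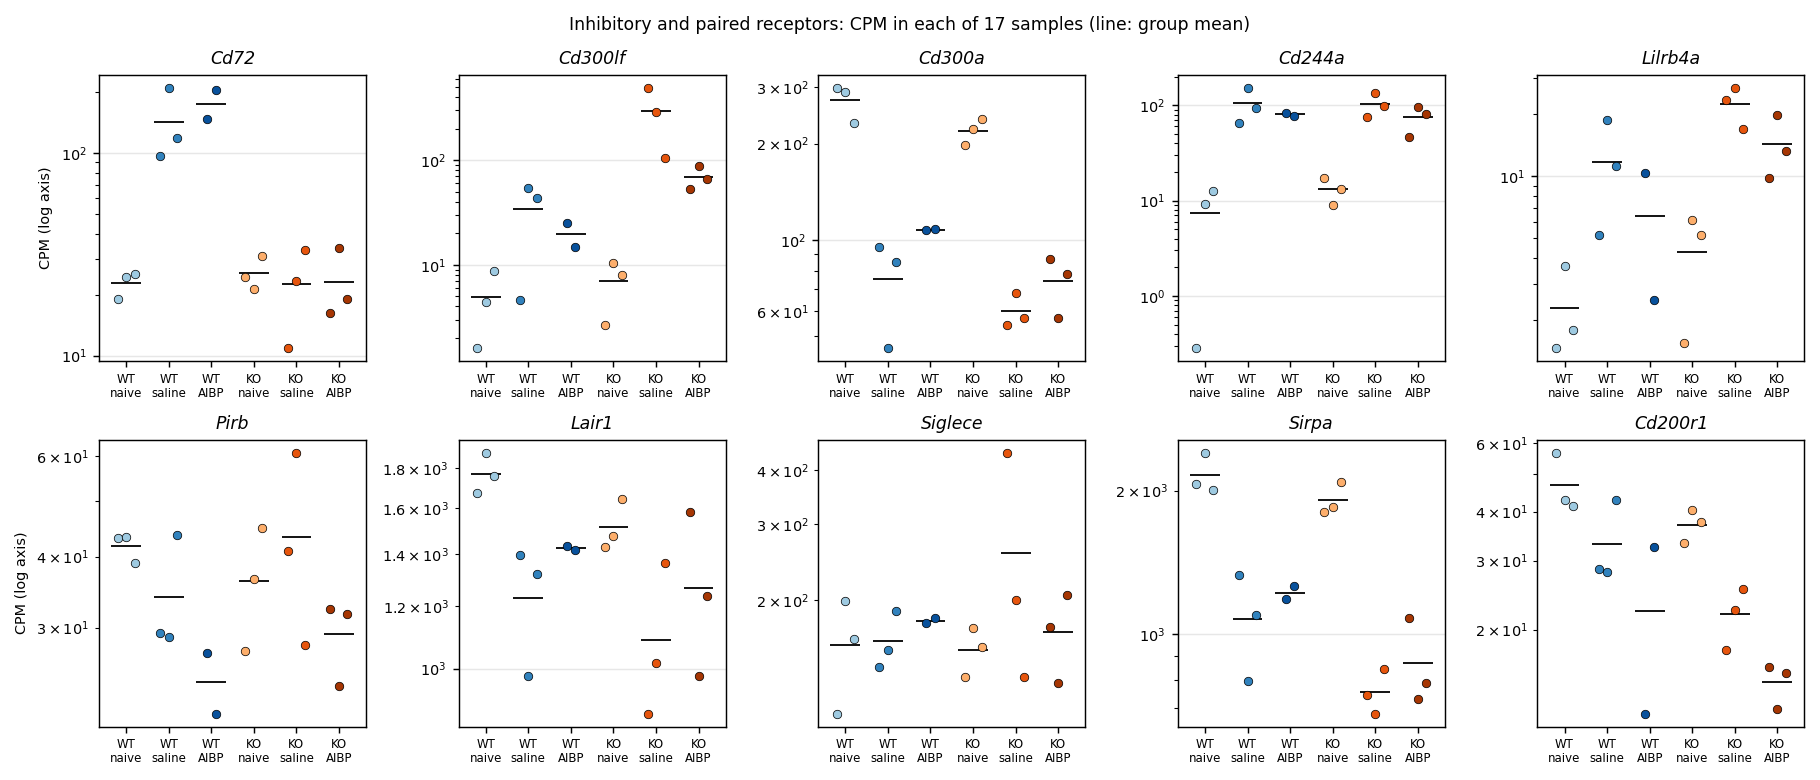
CPM of the 10 members in each of the 17 samples, on a log axis, with a line at each group mean (3 samples a group, 2 in WT cisplatin AIBP). Cd72 is at 96.7 CPM or more only in the 5 WT samples given cisplatin, whereas Cd300a and Sirpa are lower after cisplatin in both genotypes.

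Among receptors for proteins on other cells, Cd72 had levels that stood apart between the genotypes after cisplatin, though not in naive mice. It encodes a C-type lectin receptor with an inhibitory tail whose ligand is semaphorin 4D, and lies on chromosome 4 (GRCm38, 43446462 to 43454628, minus strand). Cd72 was at 19.02, 24.3 and 25.3 CPM in WT naive 1, 2 and 3 and at 24.4, 21.3 and 31.1 in KO naive. In WT it stood at 96.7, 211 and 119 CPM in cisplatin saline 4, 5 and 6, and at 147 and 204 in cisplatin AIBP 7 and 9. The KO mice given saline held 10.9, 23.3 and 33.4 CPM, and KO samples 7, 8 and 9, labelled AIBP, held 16.2, 34.1 and 18.95. The 5 WT samples given cisplatin were all above every other sample, and the 9 KO samples overlapped with naive WT whatever their treatment.

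As a description, Cd72 was 2.64 ± 0.41 higher on the log2 scale (edgeR estimate ± SE) in WT cisplatin saline than in WT naive. The same estimate in KO was -0.18 ± 0.39, and KO was -2.66 ± 0.41 against WT after cisplatin saline. The AIBP samples give the genotype difference in mice outside those comparisons, though the part of AIBP values in choosing Cd72 is not recorded. There Cd72 averaged 176 ± 40.4 CPM in WT (SD, n = 2) and 23.1 ± 9.63 in KO (SD, n = 3). The log2 difference was -2.93 ± 0.44, with p = 9.03e-06 before and adjusted p = 0.185 after Benjamini-Hochberg adjustment over 20461 genes (edgeR quasi-likelihood test), so it did not pass the threshold of 0.05. It passed by DESeq2 (adjusted p = 1.81e-07) and limma-voom (adjusted p = 0.00778), and in 5 of 17 alternatives in all. Those that passed include a fit that took the technical libraries of a sample as separate samples. Naive mice gave 0.16 ± 0.39 for KO against WT (adjusted p = 1.00 in edgeR).

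Against WT naive, whose samples also enter the described comparison, Cd72 rose in WT cisplatin AIBP by 2.94 ± 0.44 on the log2 scale (edgeR adjusted p = 0.00888). Leaving out WT cisplatin AIBP 7 or 9 (1 sample left, its spread taken from the other groups) ended that call (adjusted p = 0.0645 and 0.0753), as did leaving out technical replicate 3 (adjusted p = 0.0595). Cd72 did not differ past the threshold between KO cisplatin AIBP and KO naive (-0.15 ± 0.39, adjusted p = 0.908 in edgeR). WT cisplatin saline 4, with monocyte markers in the naive range, held 96.7 CPM of Cd72, and WT cisplatin AIBP 7 and 9 held 147 and 204 with monocyte sums of 31.96 and 30.4 CPM. Without samples 5 and 6, the WT cisplatin estimate for Cd72 was 2.13 ± 0.49, with 1 sample left. The part of monocytes or other myeloid cells in the Cd72 levels was not tested. Cd72 lies 9.58 Mb from the floxed gene Abca1 on the same chromosome, and any part of that in its level was not tested. Of 81 genes tested from Cd72 to Abca1, 11 had an unadjusted p under 0.05 between genotypes after cisplatin saline (3 higher and 8 lower in KO), as had 1837 of all 20461 genes, and 1 was called, Cd72 itself. Exons of Tesk1 overlap Cd72 on the opposite strand, with 3064 counts over all samples against 64152 for Cd72, and the strand setting of the counting is not given in the sources used here.

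Single technical libraries of Cd72 varied. In WT cisplatin saline 4 they stood at 33.4, 165 and 93.6 CPM, and in KO cisplatin AIBP 8 at 24.6, 87.5 and 0.201. The other 4 WT cisplatin samples held 108 to 243 CPM in every library, and the libraries of the other 8 KO samples held 2.33 to 41.1.

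**Figure D2:**
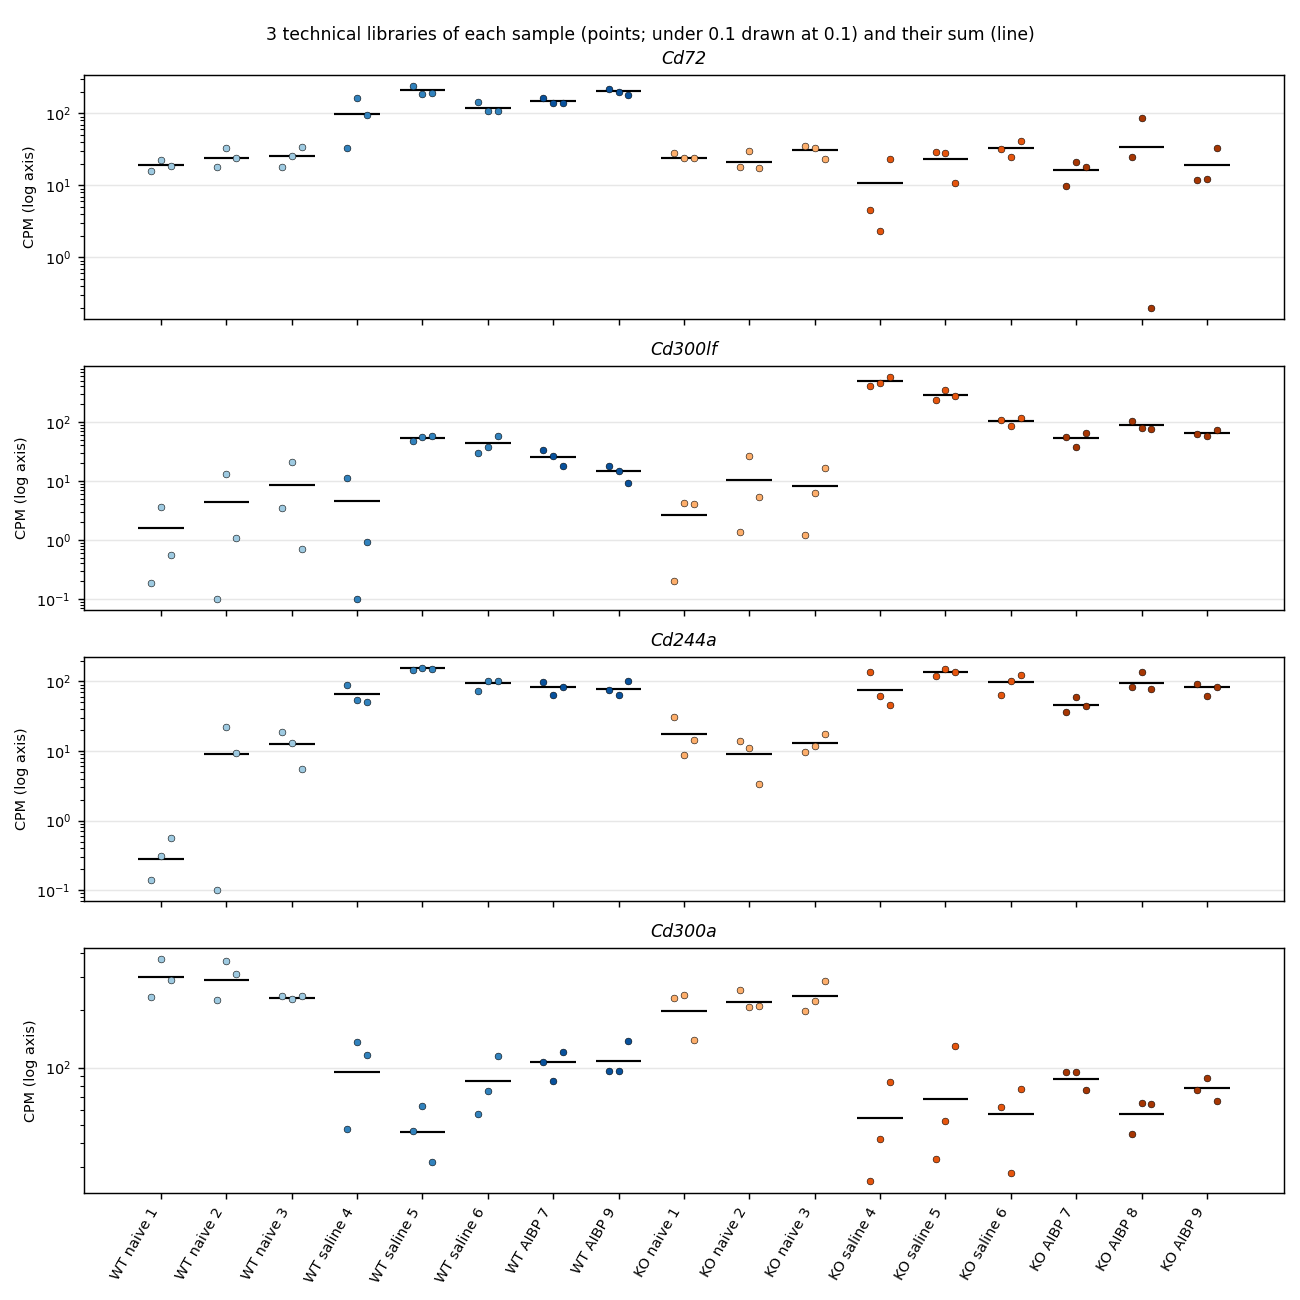
CPM of Cd72, Cd300lf, Cd244a and Cd300a in the 3 technical libraries of each sample (points) and in their sum (line), on a log axis, with values under 0.1 drawn at 0.1. For Cd72, 1 library of KO cisplatin AIBP 8 reaches 87.5 CPM and 1 library of WT cisplatin saline 4 is at 33.4, while Cd300lf in KO cisplatin saline is at 86.0 CPM or more in every library.

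Cd244a was higher after cisplatin in every group. It encodes 2B4, a SLAM family receptor for CD48 whose tail can signal in either direction. The WT naive samples held 0.283, 9.17 and 12.6 CPM and the KO naive samples 17.4, 8.91 and 13.2. WT mice given cisplatin and saline held 65.8, 154 and 94.7 CPM, and the KO mice 74.7, 135 and 98.7. With AIBP the WT samples had 83.2 and 78.2 CPM of Cd244a and the KO samples 46.2, 96.3 and 82.1. All 11 samples given cisplatin were above all 6 naive samples. The described differences were 3.83 ± 0.81 in WT and 2.97 ± 0.78 in KO on the log2 scale. With AIBP, Cd244a did not pass against the same naive samples (WT 3.45 ± 0.84, adjusted p = 0.0619; KO 2.51 ± 0.77, adjusted p = 0.109; edgeR). DESeq2 called both (adjusted p = 0.00123 and 0.0115), and without WT naive 1, the sample at 0.283 CPM, the WT estimate was 2.89 ± 0.47 and passed (edgeR adjusted p = 0.0384). In all, 5 of 15 alternatives in WT and 6 of 17 in KO called Cd244a here, and the others did not. Both counts of calls include the fit that took technical libraries as separate samples. The genotypes were close after cisplatin AIBP, where KO against WT gave -0.11 ± 0.81 (adjusted p = 1.00, edgeR). Ly9 lies on the opposite strand within the Cd244a locus, with no overlap of exons.

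Sirpa, the most abundant member, was lower after cisplatin. It encodes SIRPα, the receptor of the CD47 signal that restrains phagocytosis. Naive WT mice held 2059, 2399 and 2009 CPM, and naive KO mice 1799, 1848 and 2088. Cisplatin with saline left 1329, 795 and 1098 CPM in WT mice, against 744, 681 and 843 in KO mice. Cisplatin with AIBP left 1184 and 1259 CPM in WT mice, against 1082, 731 and 789 in KO mice. No sample given cisplatin reached the naive range. The described log2 differences were -1.005 ± 0.19 in WT and -1.34 ± 0.19 in KO. Sirpa fell by 1.14 ± 0.19 in KO cisplatin AIBP against KO naive (edgeR adjusted p = 0.00588; 0.0627 with these 2 groups fitted alone, which ended the call), and the WT value of -0.82 ± 0.21 did not pass (adjusted p = 0.0801; 0.00482 by DESeq2 and 0.0467 by limma-voom). In all, that WT value with AIBP passed in 5 of 15 alternatives, among them the fit that took technical libraries as separate samples. Without WT cisplatin saline 5, at 795 CPM, the WT cisplatin saline estimate was -0.83 ± 0.18. Without samples 5 and 6, with 1 sample left, that estimate was -0.65 ± 0.23.

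Cd200r1 encodes the receptor of the neuronal glycoprotein CD200. The WT levels were 56.5, 42.8 and 41.3 CPM when naive, 28.5, 28.1 and 42.8 with saline, and 12.2 and 32.4 with AIBP. The KO levels were 33.2, 40.3 and 37.7 CPM when naive, 17.7, 22.5 and 25.4 with saline, and 16, 12.5 and 15.5 with AIBP. The KO groups did not overlap, while the WT cisplatin saline samples reached the naive range. Cd200r1 fell by 1.34 ± 0.32 on the log2 scale in KO cisplatin AIBP against KO naive (edgeR adjusted p = 0.0375). Leaving out any 1 of those 6 samples ended this call (adjusted p = 0.0520 to 0.175), as did leaving out technical replicate 1 or 3 (0.278 and 0.373) or fitting these 2 groups alone (0.0707). In WT the AIBP value was -1.07 ± 0.36 (adjusted p = 0.186).

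**Figure D3:**
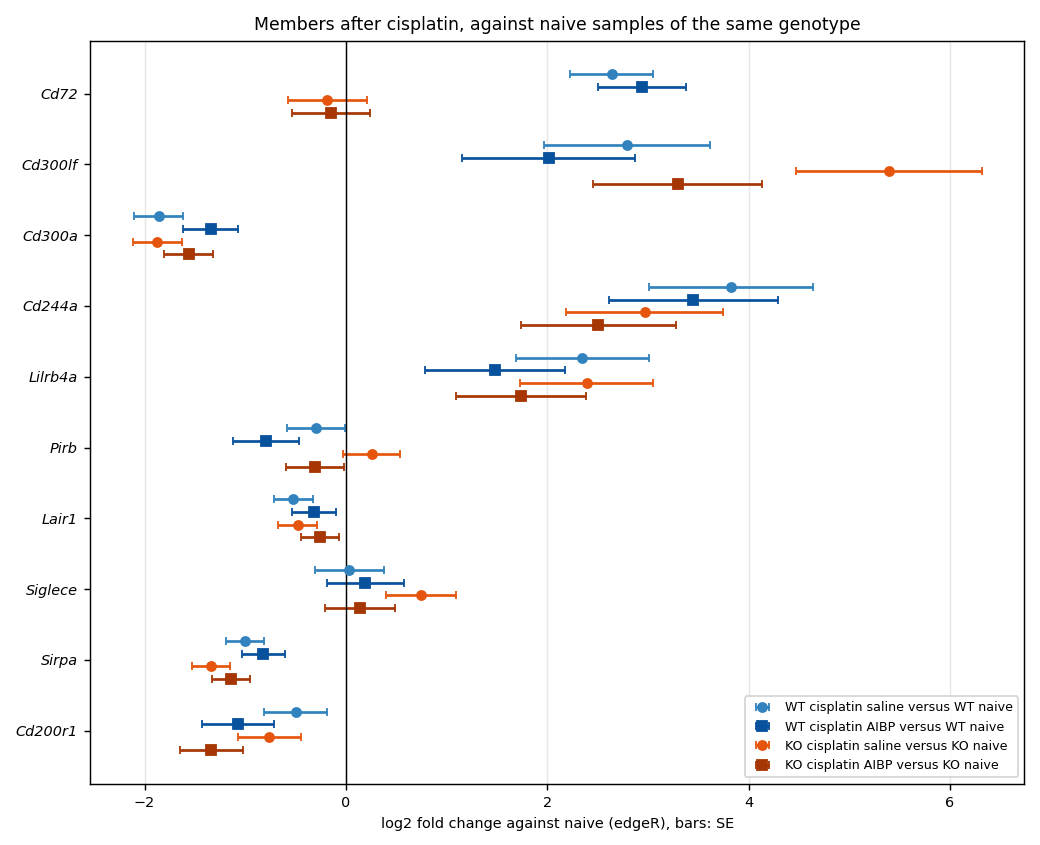
Log2 fold changes of the 10 members against naive samples of the same genotype, with bars for the SE, after cisplatin saline (circles) and cisplatin AIBP (squares). Cd72 is at 2.64 and 2.94 in WT and at -0.18 and -0.15 in KO. Cd300a, Sirpa, Cd200r1 and Lair1 are below 0 in all 4 comparisons.

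The CD300 family, receptors that bind phosphatidylserine and other membrane lipids on dying cells, held members that went opposite ways. Cd300lf and Cd300a lie on chromosome 11 (115116214 to 115133992 and 114890041 to 114904654). Cd300lf encodes a receptor known for both inhibition and uptake of dying cells. Naive WT mice held 1.60, 4.43 and 8.66 CPM, and naive KO mice 2.65, 10.3 and 8.07. KO samples 4, 5 and 6, given saline, held 492, 288 and 106 CPM, and KO samples 7, 8 and 9, labelled AIBP, 53.5, 87.3 and 65.7. The WT samples held 4.61, 53.96 and 43.4 CPM after cisplatin saline and 25.1 and 14.6 after cisplatin AIBP. The 3 KO cisplatin saline samples were above all 14 others, and the KO cisplatin AIBP samples were above every WT sample, except that KO cisplatin AIBP 7 and WT cisplatin saline 5 were level.

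As a description, Cd300lf differed by 5.40 ± 0.92 on the log2 scale between KO cisplatin saline and KO naive, by 2.79 ± 0.82 in WT, and by 3.12 ± 0.83 between KO and WT after cisplatin saline. The WT difference moved with the samples that held monocyte markers: sample 4, with a monocyte sum of 11.5 CPM, held 4.61 CPM of Cd300lf, and without samples 5 and 6 the estimate was -0.04. The monocyte sum was also raised in KO cisplatin saline (150, 171 and 114 CPM), where Ccr2 was at 6.74 CPM or less and Chil3 at 76.9 to 116. Across those 3 samples the order of the Cd300lf levels was not that of the monocyte sums. KO cisplatin AIBP 7 and 9, with monocyte sums of 36.96 and 38.7 CPM, held 53.5 and 65.7 CPM of Cd300lf. The part of other myeloid cells in these levels was not tested, and in sorted bulk RNA more cells of a type and more RNA per cell cannot be told apart.

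With AIBP, Cd300lf averaged 68.8 ± 17.1 CPM in KO against 295 ± 193 with saline (SD, n = 3 each). The groups did not overlap, and the log2 difference was -2.10 ± 0.79 with p = 0.0186 before and adjusted p = 0.706 after adjustment (edgeR), so it did not pass. In WT the same comparison gave -0.78 ± 0.88, and the difference between genotypes in the AIBP effect was -1.32 ± 1.14 (adjusted p = 0.973, edgeR). KO cisplatin AIBP against KO naive gave 3.29 ± 0.84 (edgeR adjusted p = 0.0509, and 0.000411 by DESeq2), and 6 of 17 alternatives in all called it. Those that called it include the fit that took technical libraries as separate samples. KO against WT after cisplatin AIBP gave 1.79 ± 0.91 (adjusted p = 0.732).

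Cd300a, which encodes the main inhibitory receptor of the family, was lower after cisplatin in both genotypes. Its naive levels were 299, 290 and 231 CPM for WT mice and 197, 221 and 238 for KO mice. Cisplatin with saline left 94.7, 45.8 and 85.4 CPM in WT mice, against 54.05, 68.4 and 57.0 in KO mice. With AIBP the levels were 107 and 108 CPM for WT mice and 86.9, 57.2 and 78.3 for KO mice, so that no treated sample of either genotype came near the naive range. The described differences were -1.86 ± 0.24 in WT and -1.87 ± 0.24 in KO. Against the same naive samples Cd300a fell by 1.34 ± 0.28 in WT cisplatin AIBP (adjusted p = 0.0290) and by 1.56 ± 0.24 in KO cisplatin AIBP (adjusted p = 0.00365; edgeR). The WT call was lost without WT naive 1 or 2 (adjusted p = 0.102 and 0.0881), WT cisplatin AIBP 7 or 9 (0.282 and 0.226) or technical replicate 1 or 2 (0.0749 and 0.137). The genotype difference in its cisplatin effect was -0.01 ± 0.33 on the log2 scale.

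Lilrb4a, Pirb and Lair1 are receptors of the leukocyte receptor complex type. Lilrb4a is inhibitory, and fibronectin is a known ligand. The WT levels were 1.46, 3.65 and 1.78 CPM when naive, 5.18, 18.7 and 11.2 with saline, and 10.3 and 2.48 with AIBP. The KO levels were 1.55, 6.14 and 5.14 CPM when naive, 23.6, 26.9 and 16.9 with saline, and 9.82, 19.8 and 13.3 with AIBP. The KO samples given cisplatin did not overlap with KO naive, whereas WT cisplatin AIBP 9 lay within the naive range. The described differences were 2.35 ± 0.66 in WT and 2.39 ± 0.66 in KO. Without WT samples 5 and 6, whose monocyte sums were 229 and 167 CPM against 11.5 in sample 4 (1 sample left), the WT estimate was 1.22, and the part of those cells was not tested. With AIBP the values of 1.48 ± 0.70 and 1.74 ± 0.65 did not pass (adjusted p = 0.351 and 0.197, edgeR). Its activating neighbour Lilr4b had 5.22, 60.2 and 46.5 CPM in WT samples 4, 5 and 6, against 9.17 to 14.4 in the KO samples given saline. Of the 50-base windows of Lilrb4a transcripts, the length of a read, 46.7% also occur in transcripts of Lilr4b or Gm49339, so how the authors' counting split these reads bears on both genes.

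Pirb, the inhibitory receptor for MHC class I and for myelin inhibitors such as Nogo, ranged from 21.2 to 60.9 CPM over the 17 samples. Its 2 WT cisplatin AIBP samples, at 27.03 and 21.2 CPM, were below WT naive (38.98 to 43.3) and WT cisplatin saline (28.9 to 43.6), while the KO groups overlapped. Neither AIBP difference against naive passed (-0.79 ± 0.33 in WT, adjusted p = 0.289; -0.31 ± 0.29 in KO, adjusted p = 0.636; edgeR). Group means ran from 24.1 ± 4.13 CPM in WT cisplatin AIBP (SD, n = 2) to 43.3 ± 16.6 in KO cisplatin saline (SD, n = 3). Its activating counterpart Pira2 stayed at 2.94 CPM or less, and 33.97% of the 50-base windows of Pirb occur in Pira2 or other relatives. Lair1, a receptor for collagens and for complement C1q, was at 1673, 1881 and 1756 CPM in WT naive and 1428, 1475 and 1641 in KO naive. After cisplatin its 11 samples ranged from 877 to 1584 CPM, all below WT naive, with some AIBP samples inside the KO naive range. The described differences of Lair1 were -0.52 ± 0.19 in WT and -0.48 ± 0.19 in KO, and with AIBP -0.31 ± 0.22 and -0.26 ± 0.19 (adjusted p = 0.514 and 0.533, edgeR).

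Siglece, which binds sialic acids on the surface of neighbouring cells, was at 109 to 205 CPM in 16 of the samples. KO cisplatin saline 4 held 438 CPM, and the other samples of its group 200 and 133. That sample also had the highest Cd300lf (492 CPM) and the lowest Cd72 (10.9) of all. With AIBP the Siglece differences against naive were 0.19 ± 0.38 in WT and 0.14 ± 0.34 in KO (adjusted p = 0.872 and 0.900, edgeR).

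The counts of members called are best read against those of all genes. In WT cisplatin saline against naive, 4 of 10 members were called against 2.91% of all genes, and in KO 4 of 10 against 4.41%; since these contrasts probably chose the members, nothing is read from the counts, nor from that of KO against WT after cisplatin saline. The WT count was 2 without WT cisplatin saline 5 and 0 without 5 and 6, with 1 sample left. KO against WT after cisplatin saline had Cd72 as its 1 call, against 0.0440% of all genes. The call ended without WT cisplatin saline 5 or 6, without KO cisplatin saline 4 or 5, and without technical replicate 2 or 3. WT cisplatin AIBP against WT naive had 2 called, Cd72 higher and Cd300a lower, where 1.25% of all genes were called. KO cisplatin AIBP against KO naive had 3 called, Cd300a, Sirpa and Cd200r1, all lower, where 2.68% of all genes were called. These 2 comparisons share their naive samples with the described ones. The median log2 fold change of the 10 members was -0.06 in WT and -0.20 in KO there, beside -0.07 in each for all genes tested.

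AIBP itself moved no member past the threshold. Between AIBP and saline after cisplatin, 0 of 10 were called in WT, where 0% of all genes were, and 0 of 10 in KO, where 0.00977% were (edgeR; also 0 by DESeq2 and by limma-voom). At an unadjusted p under 0.05 there were 0 members in WT and 1 in KO, Cd300lf. Between naive KO and naive WT 0 members were called, against 0.00489% of all genes, with 0 at an unadjusted p under 0.05 and 0 by DESeq2 or limma-voom. After cisplatin AIBP 0 were called between genotypes, against 0% of all genes, with 2 at an unadjusted p under 0.05 (Cd72 and Sirpa) and 1, Cd72, by DESeq2 and by limma-voom. The tests of the genotype difference called 0 members both for the cisplatin effect and for the AIBP effect, against 0% of all genes in each. The cisplatin effect is built from the comparisons that probably chose the members, so nothing is read from its count, and its estimates furthest from 0, -2.82 ± 0.56 for Cd72 and 2.604 ± 1.11 for Cd300lf, are a description. At an unadjusted p under 0.05 there were 2 members, and DESeq2 counted 1 and limma-voom 0. For the AIBP effect 0 had an unadjusted p under 0.05, and 0 were called by DESeq2 or limma-voom.

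**Figure D4:**
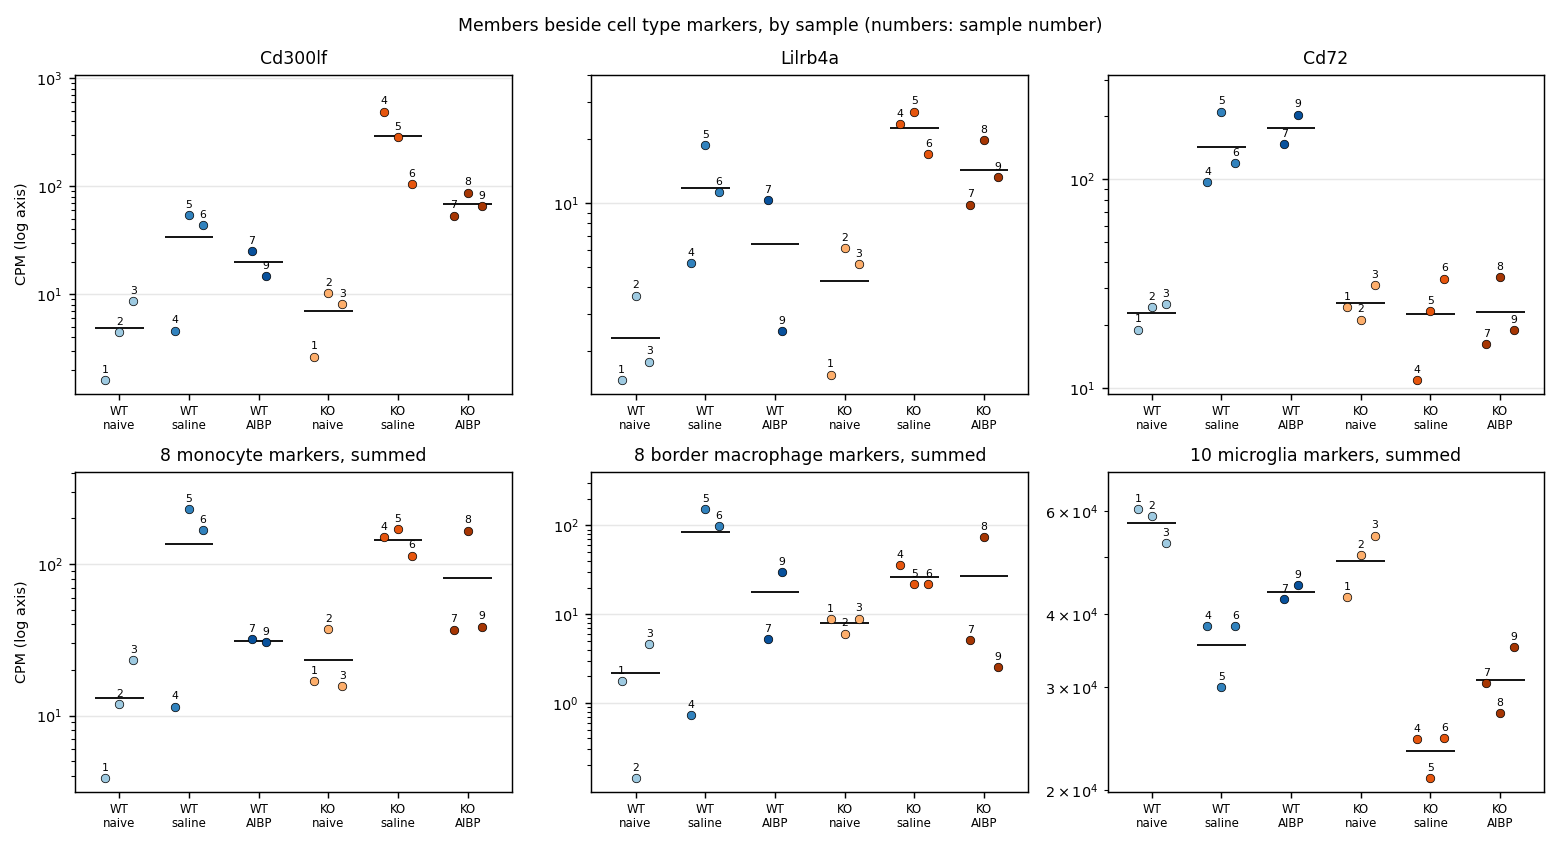
CPM of Cd300lf, Lilrb4a and Cd72 (top row) beside the summed CPM of monocyte, border macrophage and microglia markers (bottom row) in each sample, on log axes, with sample numbers above the points and a line at each group mean. WT cisplatin saline 4, at 11.5 CPM of monocyte markers, holds 4.61 CPM of Cd300lf and 96.7 CPM of Cd72.

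Other inhibitory receptors moved in both directions after cisplatin. The genes named as called in this list and the next ones were picked for their p-values in these same data, so those p-values are a description. Of 19 listed, 18 were tested. In cisplatin saline against naive, 2 rose in WT, and in KO 2 rose and 2 fell, where 2.91% and 4.41% of all genes were called (these shares apply to the lists that follow too; edgeR; list medians -0.64 and -0.08 beside -0.01 and -0.04 for all genes). Pilra, which binds sialylated proteins, rose from 29.8 to 38.3 CPM in WT naive to 71.9, 255 and 155 in WT cisplatin saline (2.22 ± 0.37, adjusted p = 0.00675). In KO it rose from 31.4 to 39.2 CPM to 185 to 244 (2.57 ± 0.38, adjusted p = 0.00177). Milr1, known from mast cells, rose in both genotypes too (1.01 ± 0.23 in WT, adjusted p = 0.0281; 1.204 ± 0.23 in KO, adjusted p = 0.00801). In KO the checkpoint genes Lag3, which binds MHC class II, and Vsir, which encodes VISTA, fell by 1.202 ± 0.21 and 1.31 ± 0.24 (adjusted p = 0.00471 and 0.00602). In WT they were lower without overlap and not called (Lag3 -0.78 ± 0.21, adjusted p = 0.0593; Vsir -0.76 ± 0.24, adjusted p = 0.108). With AIBP, Pilra and Milr1 were called higher and Lag3 and Vsir lower in KO, and in WT Pilra (2.21 ± 0.40, adjusted p = 0.0180) and Milr1 (1.43 ± 0.25, adjusted p = 0.0167) were called. Without the WT samples 5 and 6 only 1 sample, at 71.9 CPM of Pilra, is left in WT cisplatin saline.

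Of 27 activating paired receptors listed, 24 were matched by name and 20 tested. In cisplatin saline against naive, WT had 2 higher and 1 lower and KO 1 higher and 2 lower (medians 2.18 and 0.52). Pilrb1, the activating partner of Pilra, rose from 0.263 to 2.15 CPM to 4.13, 22.4 and 16.5 in WT (3.83 ± 0.79, adjusted p = 0.0192) and from 1.54 to 3.97 to 12.98 to 25.1 in KO (2.90 ± 0.76, adjusted p = 0.0438). Inhibitory and activating genes of this pair were thus called in the same direction. Trem2, the lipid receptor of microglia, fell in both genotypes (-0.92 ± 0.21 in WT, adjusted p = 0.0283; -1.12 ± 0.21 in KO, adjusted p = 0.00705). Siglech, a microglial lectin that couples to DAP12, fell by 1.44 ± 0.31 in KO (adjusted p = 0.0158), and its WT value was -0.91 ± 0.31 (adjusted p = 0.141). Clec4n, which encodes Dectin-2, was at 58.3 and 101.9 CPM in WT samples 5 and 6 and at 55.2 in KO sample 8. These 3 samples also have the highest border macrophage sums, and Clec4n was at 11.2 CPM or less elsewhere.

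Genes of the signalling machinery shared by these receptors were listed too. The adaptor genes Tyrobp and Fcer1g were not called in any of the comparisons (edgeR), with Tyrobp at 1515 to 2234 CPM and Fcer1g at 883 to 1685 over the 17 samples. Of 10 inhibitory effectors tested, 1 was called after cisplatin saline in each genotype, the kinase gene Csk, which was named after its values were seen (-0.79 ± 0.15 in WT, adjusted p = 0.0124; -0.59 ± 0.15 in KO, adjusted p = 0.0386). The phosphatase genes Ptpn6 and Inpp5d were at 429 to 842 and 366 to 916 CPM and were not called, though Inpp5d was lower without overlap in both genotypes after cisplatin saline (-0.61 ± 0.19 in WT, adjusted p = 0.108; -0.67 ± 0.19 in KO, adjusted p = 0.0630). Of 10 Src and Syk pathway genes, 1 fell in KO after cisplatin saline, the adaptor Blnk, also named after its values were seen, from 325 to 339 CPM to 63.7 to 135 (-1.87 ± 0.25, adjusted p = 0.00123). The kinase gene Lyn, whose product phosphorylates ITIM tyrosines, was not called.

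Among 18 ligands of the members 14 were tested, and 1 fell in WT after cisplatin saline, while in KO 3 fell and 1 rose (medians -0.18 and -0.26). Sema4d, the ligand of CD72, was at 207 to 213 CPM in WT naive and 201 to 255 in KO naive. WT mice given cisplatin and saline held 129, 76.8 and 90.7 CPM (-1.08 ± 0.31, adjusted p = 0.0765) and Sema4d fell to 39.4, 37.8 and 68.6 CPM in such KO mice (-2.22 ± 0.32, adjusted p = 0.00142). The MHC class I gene H2-K1, a ligand of PIR-B, fell in both genotypes (-0.67 ± 0.17, adjusted p = 0.0442; -0.80 ± 0.17, adjusted p = 0.0143), and H2-D1 fell in KO (-0.57 ± 0.15, adjusted p = 0.0429). Fn1, which encodes fibronectin, rose in KO (6.48 ± 1.43, adjusted p = 0.0184). In WT it went from 0.687 to 51.6 CPM to 236 to 874 and was not called (4.97 ± 1.33, adjusted p = 0.0603).

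**Figure D5:**
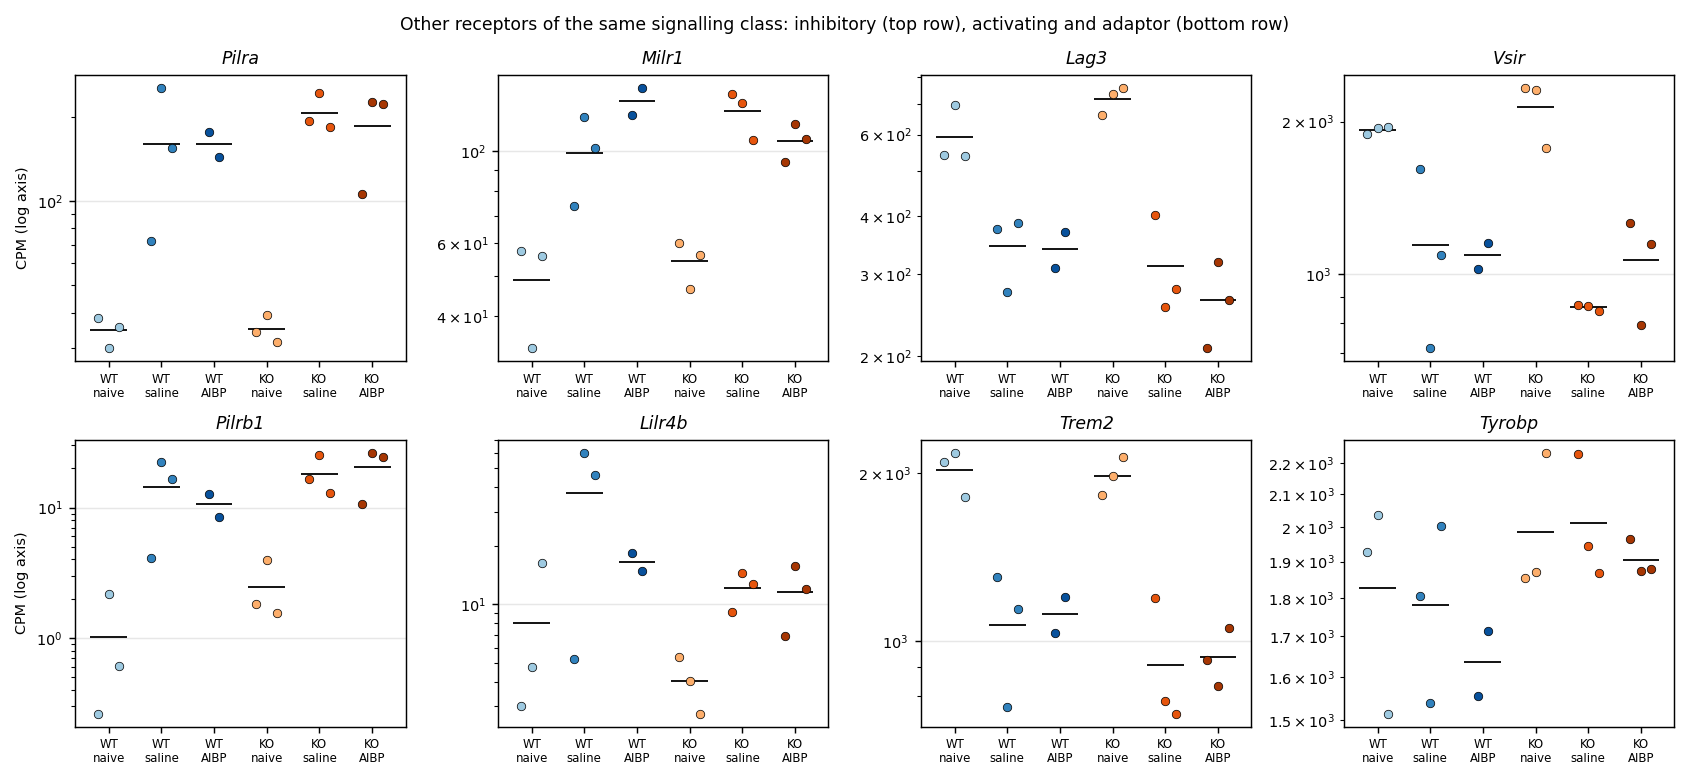
CPM of other inhibitory receptors (Pilra, Milr1, Lag3 and Vsir, top row), activating receptors and the adaptor Tyrobp (bottom row) in each sample, on log axes, with lines at group means. Pilra is at 29.8 to 39.2 CPM in the 6 naive samples and at 71.9 CPM or more after cisplatin, while Tyrobp stays between 1515 and 2234 CPM.

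Genes with the most similar profile were sought among 8225 genes averaging 10 CPM or more, by the root mean square difference of log2 CPM centred on each gene's mean over the 17 samples. The nearest to Cd300a were P2ry12 (0.24) and Entpd1 (0.26), where Cd300a itself varied by 0.89 about its mean. To Sirpa they were Csf3r (0.13) and St3gal6 (0.14), where Sirpa varied by 0.60. Asap1 (0.15) was near to Lair1, which itself varied by 0.31. For Cd244a the nearest were Cd36 (0.83) and Mcm2 (0.90), against 2.17. For Lilrb4a they were Cyp4f18 (0.62) and Soat2 (0.65), against 1.36. Cd72 (1.32 about its mean) was nearest to Tacc3 (0.78) and Creld2 (0.79), and Cd300lf (2.28) to Ms4a6c (1.09) and Cyp4f18 (1.17). Pirb (Dctn6, 0.27), Siglece (Eci2, 0.23; Lfng, 0.26) and Cd200r1 (Stradb, 0.33; Sqor, 0.35) varied about their own means by 0.38, 0.42 and 0.66. These distances are a description over samples that share groups and libraries.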

How the data were processed

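Sorted lumbar spinal microglia were measured by oligo(dT)-primed RNA-seq, paired reads of 50 bases, per the labels' protocols. The submitters' processing notes name STAR 2.6.0a, DESeq2 and the build GRCm38; neither counting tool nor strand setting is named there. The authors deposited whole-number counts per gene for 102 runs, and a second table whose values are a signal: each deposited count divided by 1 size factor per run (0.437 to 1.62). Counts of the 6 runs of a sample were summed. The members, gene lists and tests were chosen with earlier results of these data known. Genes were named from GENCODE M21 (53620 of 53715 identifiers). CPM used TMM library sizes. The test was edgeR 4.0.16's quasi-likelihood F test (R 4.3.3) over all 17 samples with group means, filterByExpr and Benjamini-Hochberg adjustment over 20461 genes, with a threshold of 0.05. Alternatives were DESeq2 1.42.0, limma-voom (limma 3.58.1), upper-quartile scaling, other filters, the compared groups alone, replicate blocks and left-out samples or technical replicates. Other genes were named by a rule: per list, up to 4 called genes with the smallest p over the 9 pairwise comparisons and a mean of 1 CPM in a group, or the 2 most abundant where fewer than 2 were called, and for each member the 2 genes nearest in profile. The scripts were tested on simulated data. Sample numbers did not pair samples across genotypes. A few genes that these rules or lists name are not reported here.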

Additional observations from a re-analysis of the deposited data

How the results depend on the processing

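Of the results for single members under the alternatives, 1789 counted as the same. That is, a call was kept in its direction, or an uncalled estimate stayed uncalled and within its error, whatever its sign. In 54 cases the call was lost, in 54 it was gained, and 103 moved by more than their error without a call. With a call in the main or the alternative fit, 0 reversed. Uncalled estimates near 0 could change sign, as Cd72 did between naive KO and naive WT (-0.08 to 0.38). The number of members called moved by more than 1.5 times in the following cases, and the cause was not tested. DESeq2 called 2 between genotypes after cisplatin saline, 1 between genotypes after cisplatin AIBP, 5 in WT and 6 in KO for cisplatin AIBP against naive, and 1 for the genotype difference in the cisplatin effect. Limma-voom called 1 between genotypes after cisplatin AIBP. With no filter on low counts there were 1 between genotypes after cisplatin AIBP, 5 in KO for cisplatin AIBP against naive and 1 for the genotype difference in the cisplatin effect. The stricter filter gave 1 between genotypes after cisplatin AIBP, 4 in WT and 5 in KO for cisplatin AIBP against naive. The compared groups alone gave 1 in WT for cisplatin saline against naive and 0 between genotypes after cisplatin saline. Without WT cisplatin saline 5 and 6 both of these counts were 0, and they were also 0 when KO cisplatin AIBP 8 was left out too, an alternative chosen after seeing the data.

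Leaving out 1 sample or technical replicate gave 2 to 6 members in WT and 3 to 4 in KO for cisplatin saline against naive. It gave 0 to 2 in WT and 2 to 4 in KO for cisplatin AIBP against naive, 0 to 1 between genotypes after cisplatin saline, and 0 in each of the other 6 comparisons.

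With the sample number as a replicate block, 0 members were called between genotypes after cisplatin saline, 0 in naive mice and 0 after cisplatin AIBP. Same-numbered samples did not deviate together (r from -0.14 to 0.14 over 8570 genes for 8 numbers), so they share only a number. A replicate block of the technical replicate number, which treats libraries of a sample as separate samples, gave 7 in WT and 7 in KO for cisplatin saline against naive, 3 between genotypes after cisplatin saline and 1 after cisplatin AIBP. It gave 5 in WT for cisplatin AIBP against naive and 1 for the genotype difference in the cisplatin effect. Depth was 45072898 to 76643616 counts per sample. Of the members, Lilrb4a, Cd300lf and Cd244a had the fewest counts in naive samples, 389 to 2367 per group. Single libraries varied widely: those of WT naive 2 held 0.0793, 13.2 and 1.10 CPM of Cd300lf and 0.0397, 21.97 and 9.37 of Cd244a. Cd200r1 had more counts than Cd300lf in naive samples (7797 against 872 in WT, 6689 against 1274 in KO). Over all samples Cd200r1 had fewer (31450 against 92562). The mean SD between technical libraries on the log2 scale, over all samples, was 0.84 for Cd300lf and 0.83 for Cd200r1. The part of read sampling in this spread was not tested.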
